A study of Mus musculus with 20 samples.

Results

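A set of 10 genes of T cells and cytotoxic lymphocytes were followed by symbol in mouse kidney RNA, namely Cd3d, Cd3e, Cd3g, Cd247, Cd4, Cd8a, Cd8b1, Lck, Gzmb and Foxp3, which are 10 of the 47069 genes counted and 10 of the 17622 genes tested. The kidneys came from 20 male F1 hybrid mice of the labelled strain 129SJ x C57Bl/6J at 15 weeks of age. Of these, 15 were F1-Col4a3-/- mice, a model of Alport syndrome in which the gene of the type IV collagen α3 chain is disrupted in every cell, and these received treatment from 5 weeks of age. The Veh group (6 mice) received subcutaneous PBS weekly. The anti-miR-21 group (6 mice) was injected weekly with 50 mg/kg of lademirsen, an oligonucleotide that blocks miR-21, and the ACEi group (3 mice) received the angiotensin-converting enzyme inhibitor ramipril at 11 mg/L in drinking water with PBS injections, although the deposited library table states the ramipril dose per body weight instead. The WT group (5 mice) was untreated, so it differs from Veh in the injections as well as the genotype. Only 3 mice carry the ACEi comparisons, and every mouse is 1 library.

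The levels given are CPM (counts scaled to a common library size), scaled between libraries with the TMM factors of edgeR, from estimated counts that summed to between 28474272 and 29479600 per mouse. At this depth the T cell genes were read from few counts: 3 counts, taken here as the floor, amount to between 0.0825 and 0.134 CPM, and the most that any of the 10 genes reached was 493 counts. The knockout target Col4a3 was at 217 CPM ± 16.4 (SD, n = 5) in WT and 37.8 ± 7.63 (SD, n = 6) in Veh, a log2 fold change of -2.52 ± 0.14 (SE, edgeR adjusted p = 7.13e-12), with no overlap between the groups. Kidney markers were present in every library: the proximal tubule markers Lrp2, Cubn, Slc34a1, Slc5a2 and Kap summed to between 1390 and 42100 CPM, and the thick ascending limb markers Umod and Slc12a1 to between 2010 and 6550 CPM. One label describes extraction from adipose tissue, and adipocyte markers were high in 4 libraries, Veh mice A1, A4 and A9 (90.1, 120 and 90.5 CPM summed over 5 genes) and anti-miR-21 mouse A12 (99.7 CPM), against 0.394 to 22.4 CPM in the other 16. The libraries fall on 2 flow cells, named by their headers and called A and B here, with 3 WT, 4 Veh, 5 anti-miR-21 and 1 ACEi mouse on A and 2, 2, 1 and 2 mice on B.

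T cells recognise antigen through a T cell receptor that cannot signal by itself. The CD3γ, CD3δ, CD3ε and CD247 (CD3ζ) chains carry the signal into the cell, the kinase Lck phosphorylates them, and the co-receptors CD4 and CD8 bring Lck to the receptor and divide the cells into helper and cytotoxic lines. Foxp3 is the lineage factor of regulatory T cells, a class of CD4+ cells that restrains immune responses, and granzyme B is a protease that cytotoxic T cells and natural killer cells deliver into target cells. Infiltration of the interstitium by lymphocytes and macrophages is a known feature of progressive kidney disease. In bulk tissue, fewer T cells and less RNA per T cell cannot be told apart, and none of the values below separates them.

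In GRCm38 (GENCODE M21 gene models), Cd3g (chr9:44969572-44980431, minus strand), Cd3d (chr9:44981786-44987339, plus strand) and Cd3e (chr9:44998740-45009627, minus strand) lie side by side within 40056 bases, and Cd3g and Cd3d are read away from each other across a gap of 1354 bases. Cd8b1 (chr6:71322788-71337494) and Cd8a (chr6:71373427-71379173) are neighbours on the plus strand, 35932 bases apart. Cd4 (chr6:124864692-124888221, minus), Cd247 (chr1:165788681-165877277, plus), Lck (chr4:129548344-129573641, minus), Gzmb (chr14:56258838-56262260, minus) and Foxp3 (chrX:7573644-7595245, plus) lie elsewhere. Whether strand was used in the counting is not given in the sources used here. Exons of Cd3e overlap the antisense gene Gm48719, those of Cd247 overlap Gm16565 and the antisense gene Pou2f1, those of Lck overlap Mir8119, and those of Foxp3 overlap Flicr and the antisense genes Ccdc22, Gm36995 and Ppp1r3f, so reads in these stretches are uncertain.

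RefSeq promoter windows (GRCm38.p6) were matched for 8 of the 10 genes, Lck and Foxp3 with 2 starts each, and Cd4 and Cd8b1 were not matched. The 250 bases before the start are printed 5′ to 3′ for the neighbours Cd3e and Cd3d, which code for partner chains, and for Gzmb and Foxp3, which ranked differently among the Veh mice (below). Capitals mark TGTGGT, the core bound by RUNX factors, and AGGAAG, a core of ETS factors, on either strand.
Cd3e, chr9:45009612-45009861, minus strand: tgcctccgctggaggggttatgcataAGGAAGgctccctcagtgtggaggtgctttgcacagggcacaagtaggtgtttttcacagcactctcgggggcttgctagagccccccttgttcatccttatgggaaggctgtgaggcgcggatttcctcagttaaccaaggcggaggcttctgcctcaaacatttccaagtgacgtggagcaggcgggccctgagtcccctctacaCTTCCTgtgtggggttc
Cd3d, chr9:44981536-44981785, plus strand: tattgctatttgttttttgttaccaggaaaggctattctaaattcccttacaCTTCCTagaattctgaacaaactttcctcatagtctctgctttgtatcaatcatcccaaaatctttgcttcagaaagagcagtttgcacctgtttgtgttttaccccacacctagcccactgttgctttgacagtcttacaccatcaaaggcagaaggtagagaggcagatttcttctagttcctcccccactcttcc
Gzmb, chr14:56262335-56262584, minus strand: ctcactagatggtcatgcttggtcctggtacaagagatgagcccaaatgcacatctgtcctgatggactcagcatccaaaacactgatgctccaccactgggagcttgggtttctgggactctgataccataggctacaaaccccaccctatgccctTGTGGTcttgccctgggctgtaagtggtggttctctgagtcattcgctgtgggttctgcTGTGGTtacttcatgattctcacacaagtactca
Foxp3, chrX:7579426-7579675, plus strand: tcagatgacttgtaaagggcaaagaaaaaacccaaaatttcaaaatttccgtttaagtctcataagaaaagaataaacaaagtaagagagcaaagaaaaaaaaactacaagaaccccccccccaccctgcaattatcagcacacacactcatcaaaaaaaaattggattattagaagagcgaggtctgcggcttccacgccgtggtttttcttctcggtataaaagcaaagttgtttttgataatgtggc
AGGAAG or its complement was found in 6 of the 10 windows of the 8 genes and in 29.5% of all 32851 windows of the same length. TGTGGT was found in 2 of the 10, namely 1 window of Lck and the window of Gzmb, which holds 2 copies, and in 4614 of the 32851 windows. The E-box CANNTG was in 9 of the 10 (66.2% of all windows) and the GATA core AGATAA in 2 of the 10, 1 each of Cd3g and Foxp3 (9.99% of all windows). No matches of different motifs overlapped in these windows, and the letters are a description of the windows, not of binding.

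Between genes, levels can be compared only per length, for which the deposited FPKM values were used. Lck was the most abundant of the 10 in Veh at 6.07 FPKM ± 1.41 (SD, n = 6), followed by Cd3g at 4.1 ± 1.48 and Cd4 at 3.19 ± 1.14. Lck exceeded Cd3g in 6 of 6 Veh, 6 of 6 anti-miR-21 and 3 of 3 ACEi mice, whereas the following neighbours in the order (Cd3g and Cd4, Cd4 and Cd8b1, Cd8b1 and Cd247) changed places between mice, by differences within their SD. Gzmb (1.5 FPKM ± 1.6) and Foxp3 (1.12 ± 0.638) were the lowest in Veh, and each exceeded the other in 3 of 6 mice. In WT the order was another: Cd247 stood first at 0.694 FPKM ± 0.406 (n = 5), above Lck in 5 of 5 mice, and Cd8b1, Gzmb and Foxp3 were at or under 0.0394 FPKM. The authors marked the FPKM entries of Cd247 and Lck as confounded with other genes, and that of Foxp3 carries no gene model length, so their places are the least certain.

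The comparison of Veh with WT asks what the disease did to these genes. Every one of the 10 was higher in Veh (adjusted p under 0.05, edgeR quasi-likelihood test), where 39.0% of all genes tested were called higher, and in 9 of the 10 no Veh mouse overlapped a WT mouse (28.8% of all genes lay apart in this way). The 3 CD3 genes, Lck and Cd4 rose by 3.48 to 3.79 on the log2 scale, Cd8b1 by more, and Cd8a and Cd247 by less.

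Cd3e, the CD3ε chain common to every T cell receptor complex, was at 0.0891, 0.369, 0.253, 0.164 and 0.0419 CPM in the WT mice, and at 1.4, 2.65 and 4.13 CPM (lowest, median, highest) in Veh. Its log2 fold change was 3.75 ± 0.44 (SE, edgeR adjusted p = 1.93e-07). Cd3d was at 0.0409 to 0.338 CPM in WT and 1.12, 1.86 and 4.66 CPM in Veh (log2 fold change 3.62 ± 0.43, edgeR adjusted p = 1.82e-07). In both genes the lowest Veh mouse, A9, was more than 3 times as high as the highest WT mouse. Cd3g was at 0.134 to 0.491 CPM in WT and 1.99, 3.31 and 5.92 CPM in Veh (3.48 ± 0.38, edgeR adjusted p = 6.41e-08).

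Cd247, the chain that natural killer cells also use, differed from the other CD3 chains in its WT level. The WT mice had 0.935, 2.17, 1.9, 1.14 and 0.461 CPM and Veh 1.68, 3.07 and 5.09 CPM, so that WT mice A6 and A14 lay above the lowest Veh mouse. The log2 fold change was 1.27 ± 0.33 (SE, edgeR adjusted p = 0.00157), and it was 0.63 with adjusted p = 0.117 within flow cell A. Lck, the kinase that starts receptor signalling, was at 0.401, 1.23, 0.802, 1.14 and 0.252 CPM in WT and at 6.55, 8.12 and 13.9 CPM in Veh, with no overlap (3.53 ± 0.33, edgeR adjusted p = 7.36e-09).

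Cd4, the helper and regulatory T cell co-receptor, was at 0.178, 0.656, 0.634, 1.1 and 0.21 CPM in WT and 5.29, 7 and 11.4 CPM in Veh (log2 fold change 3.79 ± 0.37, edgeR adjusted p = 1.32e-08). The CD8 chains behaved differently from each other in WT. Cd8a was present in every WT mouse at 1.6, 1.68, 0.845, 0.777 and 1.47 CPM, from 19 to 41 counts. Cd8b1, whose chain pairs with CD8α on conventional cytotoxic T cells, had 0, 0, 3, 5 and 0 counts in the same libraries, at most 0.204 CPM. In Veh, Cd8a reached 2.65, 3.36 and 15.2 CPM and Cd8b1 1.04, 1.98 and 10.2 CPM. The log2 fold changes were 2.03 ± 0.43 for Cd8a (edgeR adjusted p = 0.000254) and 5.46 ± 0.80 for Cd8b1 (edgeR adjusted p = 3.74e-06). Single mice moved both: without Veh mouse A16 they were 1.35 for Cd8a and 4.63 for Cd8b1, and without WT mouse A17, which held 5 of the 8 WT counts, that of Cd8b1 was 6.45, with each still called. CD8α without CD8β is known from mouse dendritic cells and some intraepithelial lymphocytes, and the dendritic cell markers Xcr1 and Clec9a were read in WT at 0.918 and 1.88 CPM on average. The part of such cells in the WT level of Cd8a was not tested.

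Gzmb and Foxp3 were at the floor in WT, with at most 3 counts in each library. Gzmb had 2, 2, 3, 1 and 0 counts in WT and 0.7, 1.07 and 5.89 CPM in Veh, at least 14.1-fold higher than the mean floor of the WT libraries (edgeR adjusted p = 9.42e-06), or at least 7.63-fold without A16. Foxp3 had 1, 1, 2, 2 and 3 counts in WT and 1.68, 2.77 and 6.21 CPM in Veh, at least 26.6-fold higher (edgeR adjusted p = 6.27e-09). The lowest Veh mouse thus lay above every WT mouse in both genes. The median log2 fold change of the 10 genes was 3.68, also with these 2 at their bounds, against 0.0685 over all genes tested. Scaling to library totals alone moved the median of all genes to 0.652 and the split of all calls from 6869 higher and 5998 lower to 11623 and 2684; under it the 10 genes were again all called higher (66.0% of all genes were).

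**Figure D1:**
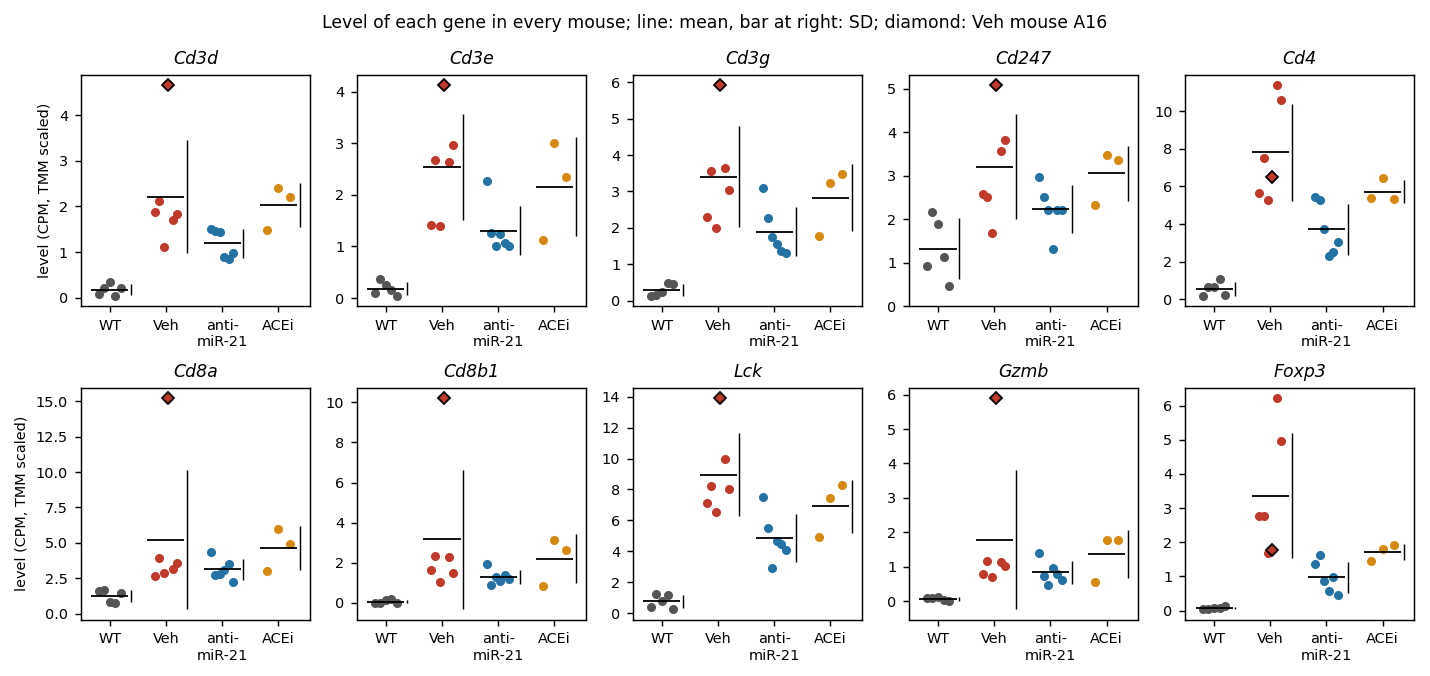
Level of each of the 10 genes in CPM (vertical axes, linear, TMM scaled) in every mouse of the WT, Veh, anti-miR-21 and ACEi groups, with the group mean as a line, the SD as a bar and Veh mouse A16 as a diamond. The Veh mice lie above WT in 9 panels, and A16 stands apart at 15.2 CPM of Cd8a and 10.2 CPM of Cd8b1 but has 1.76 CPM of Foxp3, where only A9 is lower among the Veh mice.

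Veh mouse A16, on flow cell B, stood apart from the other 5 Veh mice, and several results rest on it. It had the highest Veh level of 8 of the 10 genes. Its excess was largest for the cytotoxic genes: Gzmb was 6.11 times the mean of the other Veh mice (5.89 against 0.965 CPM ± 0.207, SD, n = 5), Cd8b1 5.77 times (10.2 against 1.76 ± 0.559) and Cd8a 4.7 times (15.2 against 3.24 ± 0.528). The CD3 genes, Cd247 and Lck were 1.74 to 2.7 times the others. Cd4 and Foxp3 were not raised in it: Cd4 was at 6.48 CPM, rank 4 of 6, and Foxp3 at 1.76 CPM, rank 5 of 6 and 0.478 times the mean of the others. Genes outside the 10 that were highest of the Veh group in A16 include the cytotoxic granule genes Gzmk (2.5 CPM against at most 0.442) and Nkg7 (7.84 against at most 2.53) and the T cell chemokine Cxcl9 (22.8 against at most 8.63). Not all cytotoxic and natural killer genes outside the 10 were highest in A16. The granzyme gene Gzmm was lowest in it (0.278 CPM against at least 0.415), and Klrb1c, Klre1, Ncr1 and Xcl1 were each higher in another Veh mouse. The proximal tubule markers were also highest of the Veh group in A16, at 7890 CPM summed against 1390 to 4030, and its macrophage sum of 1010 CPM lay within the range of the others (992 to 1260). Adipocyte markers were at 8.76 CPM in A16.

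The comparison of anti-miR-21 with Veh asks what the oligonucleotide changed in diseased kidneys. Lower calls were made for 7 of the 10 genes, where 30.5% of all genes tested were lower, and Cd247, Cd8a and Gzmb did not pass the test. The change was largest for Foxp3, the regulatory T cell factor, and Foxp3 was the sole member with no overlap between the groups (17.9% of all genes were lower without overlap). Its levels were 0.465, 0.93 and 1.64 CPM (lowest, median, highest) under anti-miR-21, so that the highest treated mouse, A8, lay just under the lowest Veh mouse at 1.68 CPM. Foxp3 fell by 1.77 ± 0.33 on the log2 scale (SE, 95% interval -2.46 to -1.07, edgeR adjusted p = 0.000136).

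Cd4 was at 2.29, 3.4 and 5.45 CPM under anti-miR-21 and fell by 1.07 ± 0.29 on the log2 scale (SE, edgeR adjusted p = 0.00319), with treated mouse A2 inside the Veh range and A8 level with the lowest Veh mouse at 5.29 CPM. Lck was at 2.93, 4.56 and 7.51 CPM and fell by 0.88 ± 0.26 (edgeR adjusted p = 0.0065). These 3 genes, Foxp3, Cd4 and Lck, were also called lower without Veh mouse A16 and within flow cell A, where 28.9% and 28.5% of all genes were. The CD3 genes overlapped more between the groups. Cd3e was at 1, 1.15 and 2.26 CPM and fell by 0.95 ± 0.33 (edgeR adjusted p = 0.0176), Cd3d fell by 0.89 ± 0.32 (edgeR adjusted p = 0.0212) and Cd3g by 0.84 ± 0.29 (edgeR adjusted p = 0.0181). Without A16 their log2 fold changes were -0.74, -0.51 and -0.59, with edgeR adjusted p of 0.062, 0.117 and 0.0776.

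The cytotoxic genes depended most on A16. Cd8b1 was at 0.871, 1.26 and 1.95 CPM under anti-miR-21 and fell by 1.28 ± 0.51 (SE, edgeR adjusted p = 0.0375). Without A16 its log2 fold change was -0.42 with edgeR adjusted p = 0.374, and with flow cell as a term it was -0.97 with edgeR adjusted p = 0.111. Cd8a was at 2.21, 2.95 and 4.38 CPM, against a Veh median of 3.36, with a log2 difference of -0.74 ± 0.37 (edgeR adjusted p = 0.0945) that came to -0.03 without A16. Gzmb was at 0.483, 0.756 and 1.41 CPM with a log2 difference of -1.09 ± 0.49 (edgeR adjusted p = 0.0618), and -0.19 without A16. Cd247 was at 1.31, 2.21 and 2.96 CPM, with a log2 difference of -0.51 (95% interval -1.13 to 0.0979, edgeR adjusted p = 0.139). The number of the 10 genes called lower was therefore 7 with all mice, where 30.5% of all genes were. It was 3 without A16, near the 28.9% of all genes in that fit. The median log2 fold change of the 10 was -0.917 against -0.0406 over all genes. With library totals alone these medians were -1.23 and -0.38, all calls split into 2459 higher and 9861 lower in place of 5073 and 5367, and each of the 10 genes was called lower (56.0% of all genes were).

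The comparison of ACEi with Veh asks the same of ramipril. None of the 10 genes was called by the edgeR test, whereas 40.1% of all genes tested were called in either direction, and DESeq2 likewise called 0 (42.7% of all genes). Of the 10, 1 gene, Foxp3, had an unadjusted p under 0.05 in edgeR (48.3% of all genes). The groups overlapped in each of the 10 genes, whereas they lay apart in 38.6% of all genes. Foxp3 was at 1.44, 1.79 and 1.91 CPM in the ACEi mice, of which A11 lay under the Veh range of 1.68 to 6.21 and the other 2 near its lower end, with a log2 difference of -0.97 ± 0.41 (SE, edgeR unadjusted p = 0.0267, adjusted p = 0.0627). It was called lower with library totals (edgeR adjusted p = 0.0214), with upper-quartile scaling (0.0469) and without A16 (0.0366). Cd3e was at 1.12, 3.01 and 2.35 CPM, a log2 difference of -0.23 (95% interval -1.06 to 0.593). Cd4 was at 5.41, 6.44 and 5.31 CPM, a log2 difference of -0.45 (-1.18 to 0.276), and Lck at 4.95, 7.48 and 8.28 CPM (-0.38, -1.04 to 0.287). Cd8b1 was at 0.82, 3.15 and 2.62 CPM and Gzmb at 0.558, 1.79 and 1.77 CPM, with mouse A11 well under A13 and A23 in both. Their intervals, -1.81 to 0.769 and -1.6 to 0.852, include falls as large as those seen under anti-miR-21. The median of the 10 log2 differences was -0.323, against -0.049 over all genes. With library totals alone these medians were -0.573 and -0.321, and that scaling split the calls of all genes into 1907 higher and 7389 lower in place of 3704 and 3370.

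The treatments share the Veh mice, so their difference was tested directly. Between anti-miR-21 and ACEi none of the 10 genes was called by edgeR (0.584% of all genes, 103 genes, and from 0.117% without A23 to 1.22% without A8) or DESeq2 (2.48%), and 0 of the 10 had an unadjusted p under 0.05 in edgeR (14.5% of all genes). Each of the 10 was lower on average under anti-miR-21, with log2 differences from -0.796 to -0.448. The interval for Foxp3 was -1.63 to 0.0381 (edgeR adjusted p = 0.368) and that for Cd3d was -1.55 to 0.0325 (edgeR adjusted p = 0.366), so neither a difference of that size nor none was shown.

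Most of these genes were still above WT under either treatment. Under anti-miR-21, 9 of the 10 were higher than in WT (23.9% of all genes called higher), with Cd247 the exception at a log2 difference of 0.76 ± 0.33 (SE, edgeR adjusted p = 0.068). Under ACEi 10 of the 10 were higher (25.2% of all genes). Cd3e was 2.80 ± 0.45 higher than WT on the log2 scale under anti-miR-21 and 3.51 ± 0.49 under ACEi. Foxp3 was at least 7.75-fold higher than the WT floor under anti-miR-21 and at least 13.6-fold higher under ACEi.

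**Figure D2:**
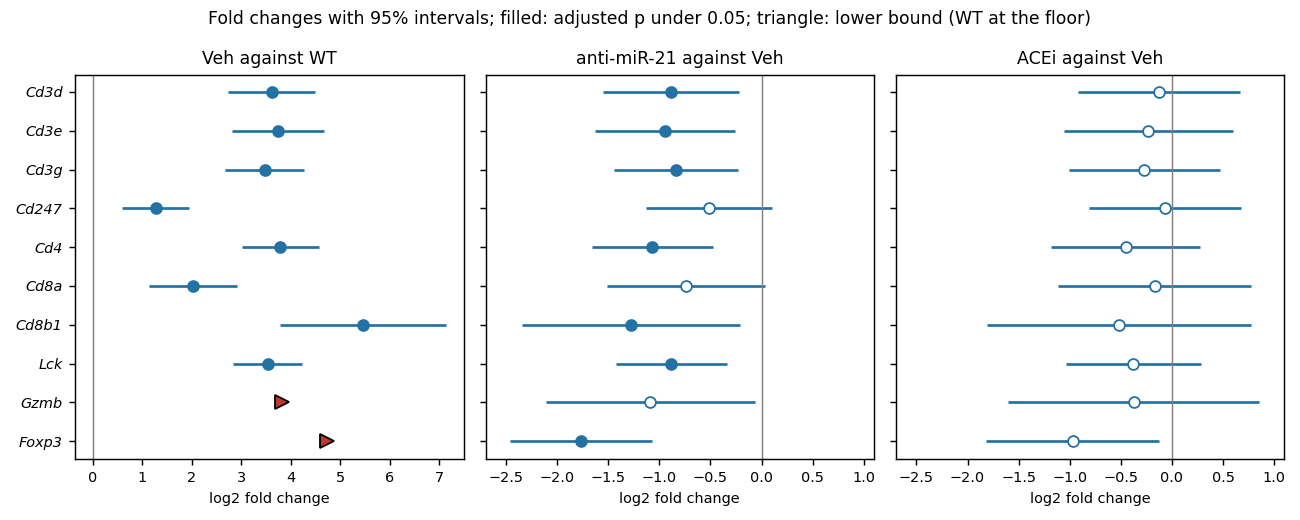
Log2 fold changes of the 10 genes with 95% intervals (horizontal axes) for Veh against WT, anti-miR-21 against Veh and ACEi against Veh, with filled points for an adjusted p under 0.05 and triangles for lower bounds where WT was at the floor. Every point lies above 0 in the first panel, 7 are filled below 0 in the second, with Foxp3 farthest at -1.77, and none is filled in the third.

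Other genes of T cell biology were taken from lists that hold none of the 10. Their counts, and those of the markers of other cells, are read against the shares of all genes called, 39.0% higher in Veh than in WT, 30.5% lower under anti-miR-21 and 19.1% lower under ACEi. Of 21 tested genes of T cell receptor signalling and the T cell surface, Veh exceeded WT in 20 and fell below it in 1 (median log2 fold change 3.18, or 2.82 with 2 genes at their bounds). The adaptor Lcp2 (SLP-76) rose by 3.18 ± 0.16, Cd6 by 4.23 ± 0.37 and the adaptor Lat by 2.82 ± 0.30 on the log2 scale. Thy1, a T cell antigen that fibroblasts also carry, rose from 2.27 to 56.6 CPM. Prkcq, the kinase PKCθ, was the one lower, with a log2 fold change of -0.49 ± 0.18. Under anti-miR-21, 12 of the 21 were lower than in Veh and none higher (median -0.688), against 11 without A16, where 28.9% of all genes were lower. Within flow cell A 5 of the 21 were lower, no more than the 28.5% of all genes. Thy1 fell by 2.17 ± 0.21, from 56.6 to 12.6 CPM, and Trbc1, a constant segment of the receptor β chain, by 1.31 ± 0.35. Trbc2 and Trac, the other constant segments, had -0.66 ± 0.31 and -0.50 ± 0.28 and did not pass. Under ACEi, where 19.1% of all genes were lower, 4 of the 21 were (2 without A16): Thy1 (-1.75 ± 0.27), Lcp2 (-0.73 ± 0.17), Rasgrp1 (-0.53 ± 0.18) and Skap1 (-0.67 ± 0.26).

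A further list joins genes of regulatory T cells with checkpoint receptors and related genes that other cells also express. All 11 genes tested rose in Veh over WT (39.0% of all genes) and all 11 fell under anti-miR-21 (30.5%; 10 without A16, 28.9%), with median log2 fold changes of 3.15 (2.62 with 3 genes at their bounds) and -1.19. Il2ra, the interleukin 2 receptor α chain that regulatory T cells carry, was at 1.74, 3.44 and 4.16 CPM in Veh and 0.812, 1.13 and 1.48 CPM under anti-miR-21, with no overlap, and fell by 1.47 ± 0.32 (SE, edgeR adjusted p = 0.000573). The checkpoint receptors Lag3 and Pdcd1 fell by 1.28 ± 0.20 and 1.99 ± 0.43 on the log2 scale, and Lrrc32 (GARP), which presents latent TGFβ on regulatory T cells and is also expressed elsewhere, by 0.79 ± 0.17. Under ACEi 3 of the 11 were lower, near the 19.1% of all genes, namely Lag3 (-0.92 ± 0.25), Lrrc32 (-0.74 ± 0.22) and Il2ra (-1.01 ± 0.40), and the others, such as Ctla4 at 0.64 against 1.12 CPM, did not pass.

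Cytotoxic and natural killer genes outside the 10 were in part higher in Veh than in WT, and their calls under anti-miR-21 changed with the mice included. Of 16 tested, 11 were higher in Veh, with Ccl5, a chemokine made by effector T cells, rising from 0.41 to 22 CPM, and Klrk1 (NKG2D), Ctsw and Nkg7 rising by 3.07, 2.71 and 3.86 on the log2 scale. Prf1 (perforin), Gzma, Gzmm, Eomes and Ncr1 did not pass. Under anti-miR-21 Klrk1 was the 1 gene of 16 called lower (-0.88 ± 0.33, edgeR adjusted p = 0.0257), fewer than the 30.5% of all genes. The count was 0 without A16 (28.9% of all genes) and 4 of 14 tested (Klrk1, Ccl5, Ctsw and Nkg7) without the Veh mice A1, A4 and A9 and the anti-miR-21 mouse A12, near the 21.3% of all genes. In the latter fit the Veh mice are A16, A19 and A20. Under ACEi edgeR called none of the 16, and none had an unadjusted p under 0.05. Values for the others under anti-miR-21 were -0.61 ± 0.29 for Ccl5, -0.71 ± 0.32 for Ctsw and -0.97 ± 0.48 for Nkg7. Ifng, the gene of interferon γ, was below the count filter, at 0.193 CPM in Veh.

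T cell transcription factors and genes of naive and memory cells included a gene that went against the rest. Il7r, the interleukin 7 receptor, Tcf7 and the homing receptor Ccr7 rose in Veh by 4.37 ± 0.33, 2.94 ± 0.24 and 3.97 ± 0.34 on the log2 scale, whereas Bcl11b was lower in Veh, from 8.3 to 3.39 CPM. Under anti-miR-21 7 of the 9 were lower (30.5% of all genes) and Bcl11b higher (0.98 ± 0.15). Under ACEi 3 of the 9 were lower (Lef1, Klf2 and Tcf7), not far from the 19.1% of all genes, and Bcl11b higher (0.74 ± 0.18). Of the γδ T cell and type 17 genes, 5 of 6 tested were higher in Veh, reaching at most 0.45 CPM on average (median log2 fold change 2.62, or 1.44 with 4 genes at their bounds), and Il17a had no counts in Veh or WT. These 5 did not pass under anti-miR-21 or under ACEi.

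The genes that draw T cells into tissue rose in Veh without exception, 9 of 9 tested, with a median log2 fold change of 3.03. Cxcl10, a ligand of the receptor CXCR3, rose from 1.67 to 44.5 CPM and Cxcr3 itself, measured at 0.698 CPM in WT, to 5.73 CPM. Under treatment this list divided. Ccr2 and Cxcl16, which monocytes and macrophages also express, were lower under anti-miR-21 (-1.34 ± 0.18 and -0.76 ± 0.12) and under ACEi (-0.74 ± 0.23 and -0.48 ± 0.14), and Cxcr4 had -0.44 ± 0.17 under anti-miR-21, which passed, and -0.48 ± 0.21 under ACEi, which did not. Cxcr3, Cxcr6, Cxcl9, Cxcl10 and Cxcl11 did not pass under either treatment. Without A16, 6 of the 9 were called under ACEi, 4 lower and 2 higher, the latter Cxcl9 (1.40, edgeR adjusted p = 0.00852) and Cxcl11 (0.82, edgeR adjusted p = 0.0235). Of all genes tested, 7335 were called in either direction in that fit, against 7074 (40.1%) with all mice. Cxcl9 was at 5.8, 22.7 and 14.1 CPM in the ACEi mice against 2.49, 5.81 and 22.8 CPM (lowest, median, highest) in Veh.

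**Figure D3:**
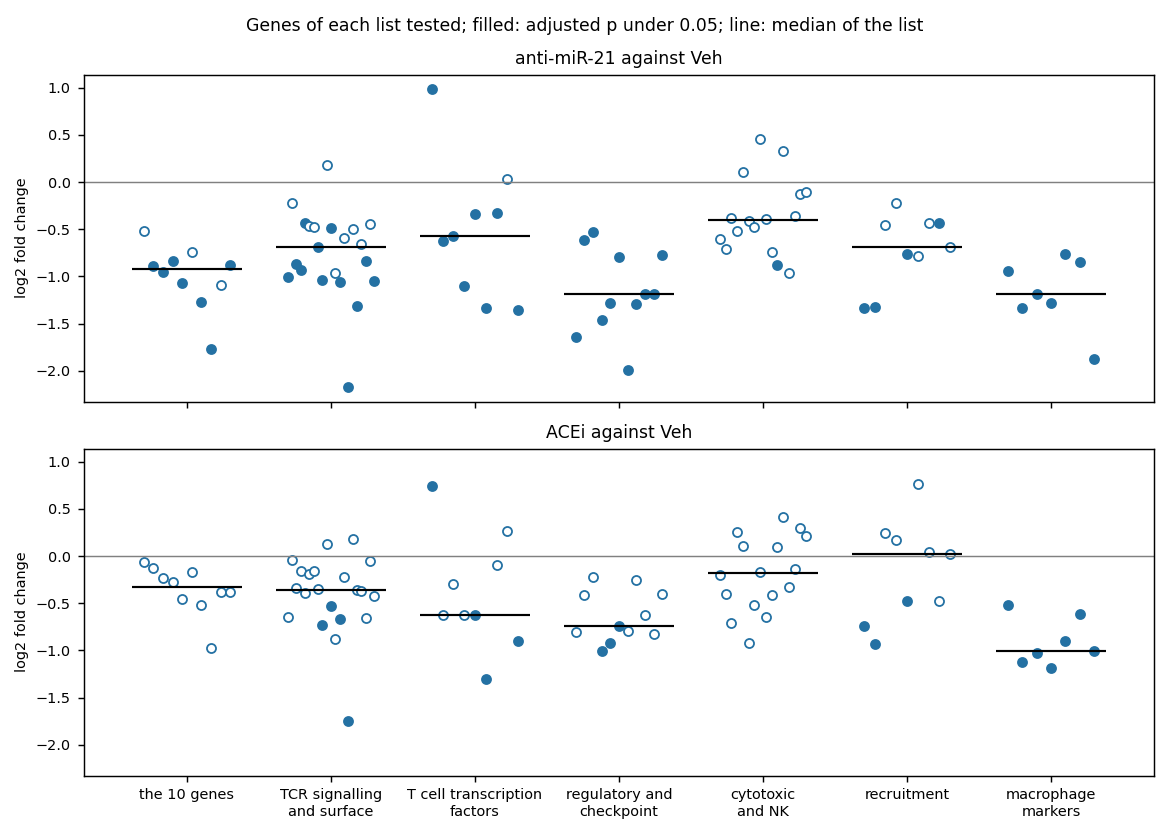
Log2 fold change (vertical axes) of every tested member of the 10 genes and of 6 other lists under anti-miR-21 (top) and ACEi (bottom) against Veh, filled where the adjusted p was under 0.05, with the list's median as a line. All 11 regulatory and checkpoint genes are filled below 0 under anti-miR-21 and 3 under ACEi, while 1 cytotoxic gene is filled under anti-miR-21 and none under ACEi.

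Ratios within a mouse show whether the makeup of the lymphocyte transcripts differed, since a common scale factor cancels. They are differences of log2 CPM with a prior count of 2, tested with two-sided exact permutation tests over the mice and adjusted over 22 tests. The test was passed by 2 of the 22. Cd8b1 relative to Cd8a was -4.62, -4.68, -2.23, -1.63 and -4.49 in the WT mice and -0.845 on average in Veh (range -1.41 to -0.442), a difference of 2.68 (exact p = 0.00216, the smallest this design allows, adjusted p = 0.0238). Its WT values rest on 0 to 5 counts of Cd8b1 and on the prior. Cd3e relative to Cd79a, a B cell receptor gene, was -0.97 ± 0.863 (SD, n = 5) in WT and 1.09 ± 1.01 (n = 6) in Veh, a difference of 2.06 (exact permutation p = 0.00216, adjusted p = 0.0238), so that Cd3e rose by more than Cd79a. Without A16 the differences were 2.63 and 1.69, and within flow cell A they were 3.03 and 1.45. With fewer mice the smallest possible exact p rises, so that leaving out any 1 of the 11 WT and Veh mice lost both calls, although the exact p of Cd8b1 to Cd8a was then the smallest possible in 11 of 11 cases and that of Cd3e to Cd79a in 10 of 11.

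The other 20 ratio tests did not pass. Foxp3 relative to Cd3e was 0.332 ± 0.865 (SD, n = 6) in Veh, with A16 lowest at -1.2, and -0.454 ± 0.561 (n = 6) under anti-miR-21, a difference of -0.786 (exact permutation p = 0.0952, adjusted p = 0.388). A greater fall of Foxp3 than of Cd3e was therefore not larger than the spread between mice. Cd4 relative to Cd3e differed by -0.198 and Lck relative to Cd3e by -0.00863 between the same groups. Gzmb relative to Cd3e was 0.504 in A16 and between -1.48 and -0.765 in the other Veh mice. Cd3e relative to the macrophage gene Adgre1 differed by -0.58 between Veh and WT (exact permutation p = 0.0736, adjusted p = 0.388), by 0.0965 between anti-miR-21 and Veh (exact permutation p = 0.684, adjusted p = 0.917) and by 0.309 between ACEi and Veh (exact permutation p = 0.488, adjusted p = 0.846).

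**Figure D4:**
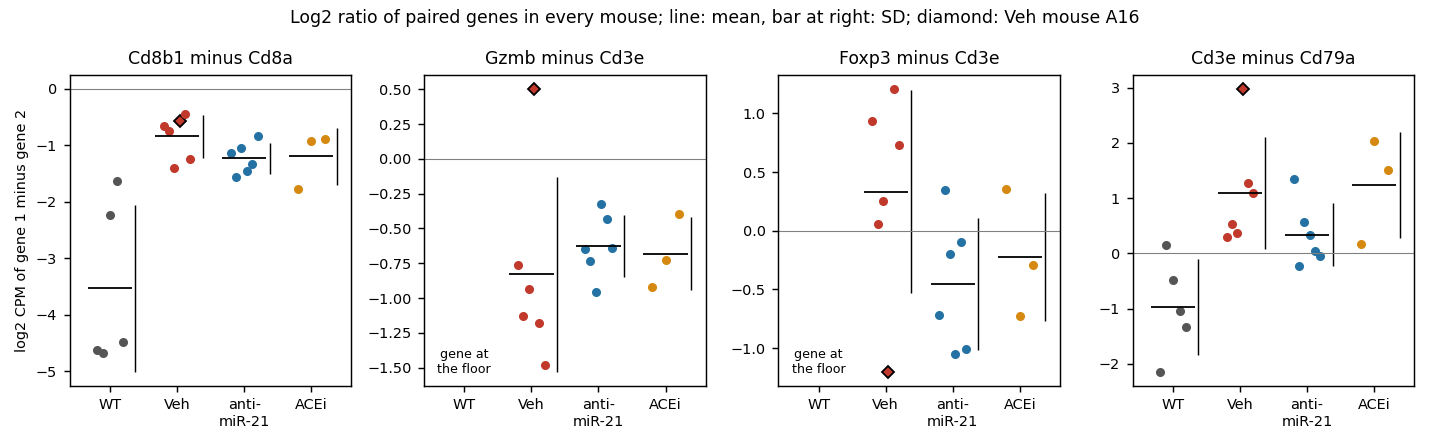
Log2 ratio of 4 gene pairs (vertical axes, log2 CPM of the first gene minus the second) in every mouse, with the group mean as a line, the SD as a bar and Veh mouse A16 as a diamond; WT is left out where Gzmb or Foxp3 was at the floor. The WT mice lie below every Veh mouse for Cd8b1 minus Cd8a, and A16 is the highest Veh mouse at 0.504 for Gzmb minus Cd3e and the lowest at -1.2 for Foxp3 minus Cd3e.

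Markers of other cells moved with the same groups. The 7 macrophage markers were all higher in Veh (Adgre1, the F4/80 antigen, from 3.3 to 53.1 CPM) and all lower under either treatment, with summed levels of 155 CPM ± 7.24 (SD, n = 5) in WT, 1110 ± 110 (n = 6) in Veh, 500 ± 95 (n = 6) under anti-miR-21 and 574 ± 56.6 (n = 3) under ACEi. Over all mice Csf1r added the most CPM to these sums, whereas in Veh C1qb (273 CPM) and C1qa (246 CPM) added more than Csf1r (224 CPM). Under ACEi the median log2 fold change of the 7 markers was -1.01. Whether macrophage markers and the 10 genes differed in response was tested for Cd3e against Adgre1 alone, and that ratio did not pass. The dendritic cell markers rose in Veh in 5 of 5 genes and were called lower in 1 (Flt3) under anti-miR-21 and 0 under ACEi. Their sums were 11.2, 39.6, 30.5 and 38.5 CPM in WT, Veh, anti-miR-21 and ACEi, to which Zbtb46 added the most CPM over all mice. Of the B cell markers 3 of 4 tested rose, their sum going from 2.19 to 6.21 CPM, and 1 (Cd79b) was lower under anti-miR-21. The plasma cell sum, most of it Xbp1, was at 173 to 252 CPM in WT and 294 to 380 CPM in Veh, with 2 of 4 genes higher in Veh, and 3 lower under anti-miR-21 and 1 under ACEi. Xbp1 itself was at 136 to 228 CPM in WT and 182 to 222 CPM in Veh, and Mzb1 at 0.535 to 2 and 0.648 to 1.71 CPM. Sdc1 added most to the rise of the sum, with 13.6 to 17.9 CPM in WT and 87.7 to 126 CPM in Veh. Jchain was at 5.62 to 16.5 and 13 to 70.5 CPM.

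Lymphoid tissue or thymus carried along with the kidney would add its own genes. Of the lymph node genes Ccl21a, Ccl19, Cxcl13, Fcer2a and Madcam1 rose in Veh (sums over 7 genes of 9.88 CPM in WT and 26.6 CPM in Veh) and Cr2 did not pass, and 3 of the 6 tested were lower under anti-miR-21 and 2 under ACEi. Glycam1, a gene of lymph node vessels, was at no more than 0.0103 CPM on average in Veh and had no counts in WT. The thymocyte genes Rag1, Rag2, Dntt and Ptcra summed to at most 0.357 CPM in any mouse. Whether lymphoid tissue or thymus had a part in the T cell values was not tested. The 4 mice high in adipocyte markers lay below their group medians in the sum of the 10 genes. In Veh (median 39.1 CPM), A1, A4 and A9 had 28.8, 36.8 and 24.3 CPM, under A16, A19 and A20 with 73.2, 45.8 and 41.3 CPM. In the anti-miR-21 group, A12 had 17.7 CPM, below the median of 18.8. Adipocyte markers were called higher in Veh than in WT in 4 of 5 genes and lower under ACEi in 4 of 5. Without those 4 mice, 10 of the 10 genes were higher in Veh than in WT (35.5% of all genes), 9 were lower under anti-miR-21 (21.3%) and 1, Foxp3, under ACEi (9.09%). The Veh mice left in that fit are A16, A19 and A20, so A16 weighs more in it. Cd8a, Cd8b1 and Gzmb had log2 fold changes of -1.20, -1.76 and -1.70 under anti-miR-21 there. Without A16 alone they had -0.03, -0.42 and -0.19. Relative to the 10 genes, erythroid genes went the other way, 5 of 5 lower in Veh and 5 of 5 higher under each treatment, as did the 5 proximal tubule markers. Of all 17622 genes tested, 5998 were lower in Veh, and 5073 and 3704 were higher under anti-miR-21 and ACEi. What part the shifts of adipocyte, erythroid and tubule markers have in the T cell values was not tested.

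Across the 15 Col4a3-/- mice the 10 genes followed their common profile, taken as the mean of their standardised log2 CPM, to different degrees. Pearson's r with it was highest for Cd3g (0.977), Cd3e (0.959) and Lck (0.928), and lowest for Cd4 (0.746) and Foxp3 (0.666), with each gene part of the mean it is compared with and the groups and A16 shared by all. The genes outside the lists most like this profile were Itgb7 (r = 0.965), an integrin chain of lymphocyte homing, Sh2d2a (0.961), an adaptor of T cell signalling, Tbc1d10c (0.94), Tap1 (0.935), the peptide transporter of antigen presentation, Gbp8 (0.935), the immunoproteasome subunit Psmb9 (0.932), Gimap3 (0.932) and the integrin chain Itgal (0.931). Itgb7 averaged 3.08 CPM in WT, 16.8 in Veh, 10.5 under anti-miR-21 and 15 under ACEi, and Tap1 11.1, 66.6, 36.4 and 47.6 CPM. In A16 Tap1 was at 118 CPM and Psmb9 at 50.3 CPM, against Veh means of 66.6 and 27.5 CPM. These are descriptions over samples that share A16 and the group differences.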

How the data were processed

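Total RNA of 20 kidneys was sequenced by the authors as paired reads. They aligned it to GRCm38 with the OmicSoft aligner and deposited estimated counts (expected counts) for 47069 Ensembl genes and FPKM values, which they scaled to gene length and depth. Of the positive estimated counts 29.1% were not whole, and they were rounded. A symbol was matched for 98.8% of gene IDs, and Adgre1 appears under its older symbol in the FPKM table. Alignments per library and flow cells came from the deposited library table, and 3 FPKM columns were not used. Genes passing filterByExpr (minimum count 10, total 15) were tested with edgeR 4.0.16 (TMM, quasi-likelihood, 1 coefficient per group over the 20 mice, no covariate) in R 4.3.3, p-values adjusted by the Benjamini-Hochberg method at 0.05; limma 3.58.1 and DESeq2 1.42.0 served alternatives, as did scaling, filters, flow cell, FPKM with pseudocounts of 1 and 0.1, the study's criterion (p under 0.01, fold 1.2) and each mouse left out. SE is the log2 fold change over the root of F, and intervals are 95%. Named were the 10 genes, Col4a3, of each list up to 4 genes of smallest adjusted p and any not called, and the 8 genes most like the 10; genes named beyond that for A16, for Veh against WT in the recruitment list, or as examples were chosen after their values were seen. Plots used Python 3.11.15 and matplotlib 3.10.9. The genes, lists and tests were chosen with earlier results of these data known. Nothing in the sources states separate litters, so p-values measure the spread between these mice. The edgeR step was tested on simulated data with 200 of 17622 genes changed, and recovered 77.0% of 2-fold and 92.0% of 4-fold changes for Veh against WT and 55.0% and 89.0% for ACEi against Veh. The changed genes were drawn from all genes tested, at any level. In the data far more genes differed (40.1% called for ACEi against Veh). The rates are therefore not those of the 10 genes.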

Additional observations from a re-analysis of the deposited data

Results flagged for a closer look

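Values far from their group, by the gap to the nearest mouse against the group's range, were looked for in 54 groups of 4 to 10 mice, of which chance marks about 1 in 20, and 8 were found. Of these, 6 are Veh mouse A16: Cd3d at 4.66 CPM, Cd8a at 15.2 CPM, Cd8b1 at 10.2 CPM and Gzmb at 5.89 CPM, each high, and the log2 ratios of Cd3e to Cd79a at 2.98 and of Gzmb to Cd3e at 0.504, also high. Cd3e in anti-miR-21 mouse A2 was high for its group at 2.26 CPM. The log2 ratio of Lck to Cd3e in WT mouse A17 was high for its group at 2.39, where Cd3e had 4 counts.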

How the results depend on the processing

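No paired analysis was possible because each mouse carries its own name and the replicate numbers only count the mice of a group. At alternatives other than leaving out a mouse, 580 of the single-gene values kept their direction and side of the threshold, 11 lost the call, 20 gained it and 1 reversed. Of the 10 genes, only 2 had at least 10 counts in every mouse, and of these 2 were called for Veh against WT, 0 for anti-miR-21 against Veh, 1 for anti-miR-21 against WT and 2 for ACEi against WT. Within flow cell A, 3 of the 10 were called lower for anti-miR-21 against Veh, near the 28.5% of all genes, and Cd8a came to 0.0211. There 0 ratio tests passed, where 3 WT and 4 Veh mice allow no exact p under 0.0286. Flow cell A holds 1 ACEi mouse, so ACEi was not fitted there. For ACEi against Veh 1 gene, Foxp3, was called with library totals alone, with upper-quartile scaling and with log2(FPKM + 0.1), and 2 with log2(FPKM + 1). The study's criterion called 5 for anti-miR-21 against WT. Without A1, A4, A9 and A12, chosen after seeing the data, 1 was called for ACEi against Veh, 0 ratio tests passed, where 5 WT and 3 Veh mice allow no exact p under 0.0179, and ratios changed sign to 0.047 (Cd4 to Cd3e, anti-miR-21 against Veh), -0.0185, 0.155 and 0.0392 (Lck to Cd3e for Veh against WT, anti-miR-21 and ACEi against Veh), -0.257 (Cd3e to Adgre1, anti-miR-21) and -0.548 (Cd3e to Cd79a, ACEi). With a prior count of 0.5 Lck to Cd3e was -0.154 for Veh against WT and 0.00948 for anti-miR-21 against Veh, and 0.0242 with log2(FPKM + 0.1). The causes were not tested. Leaving out each mouse in turn gave 3 to 8 of the 10 genes called for anti-miR-21 against Veh. The count was 3 without A16, near the 28.9% of all genes called lower, and 8 without A1. It was 0 to 1 for ACEi against Veh and 8 to 10 for anti-miR-21 against WT. Ratio tests passed numbered 0 to 2, and 0 whenever a WT or Veh mouse was left out, which raises the smallest exact p to 0.00476 or 0.00794. These counts of 0 are limited by the number of mice and say nothing of stability. Log2 fold changes for ACEi against Veh that crossed 0 ranged from -0.257 to 0.256 (Cd3d), -0.542 to 0.0857 (Cd3e), -0.171 to 0.139 (Cd247), -0.392 to 0.546 (Cd8a), -0.866 to 0.342 (Cd8b1) and -0.606 to 0.531 (Gzmb). Ratios that did so for ACEi against Veh ranged from -0.521 to 0.0437 (Cd4 to Cd3e), -0.208 to 0.244 (Cd8b1 to Cd3e), -0.308 to 0.0864 (Lck to Cd3e), -0.104 to 0.611 (Cd3e to Adgre1) and -0.256 to 0.679 (Cd3e to Cd79a), and for anti-miR-21 against Veh from -0.136 to 0.317 (Cd8b1 to Cd3e), -0.0946 to 0.0772 (Lck to Cd3e) and -0.0365 to 0.213 (Cd3e to Adgre1). All genes called for anti-miR-21 against ACEi numbered 103, against 437 with DESeq2, 66 with no filter, 155 with at least 10 counts in every mouse, 60 with log2(FPKM + 0.1), 605 by the study's criterion, 63 without A1, A4, A9 and A12, and with 1 mouse left out it ran from 0.117% of genes tested (without A23) to 1.22% (without A8). For ACEi against Veh they numbered 7074, against 1539 within flow cell B, chosen after seeing the data, and 4614 without those 4 mice. For ACEi against WT they numbered 8405, against 5055 within flow cell B. Few counts limit Cd8b1, Gzmb and Foxp3 most, since WT had at most 5, 3 and 3 counts of them per library, and 3 ACEi mice leave wide intervals.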
